A study of Vitis vinifera with 36 samples.

Results

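The 7 genes described here cover the grape flavonol branch and a pair of light regulators. They were taken by identifier from the 28119 gene identifiers in the files: MYBF1 (VIT_207s0005g01210), a pair of flavonol synthase loci (VIT_218s0001g03470, called FLS-A here, and VIT_218s0001g03430, called FLS-B), the flavonol glycosyltransferases GT5 (VIT_211s0052g01600) and GT6 (VIT_211s0052g01630), HY5 (VIT_204s0008g05210) and HYH (VIT_205s0020g01090). All 7 were found and all 7 passed the filter on low counts. The files list identifiers without names, so the names follow the identifiers by which the genes were chosen, and by the digits of the identifiers the loci lie on chromosomes 7, 18, 11, 4 and 5.

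The libraries are RNA-seq of berries of Vitis vinifera from vines in southern China that bear 2 crops in a year, sampled in the 2014 season. Berries of the cultivars Victoria and Muscat Superior were taken from a summer crop, forced after pruning in February, and from a winter crop of the same vineyard regime, forced after pruning and removal of the leaves in August. Each crop was sampled at Eichhorn-Lorenz stages E-L 35, E-L 36 and E-L 38, which in that scale are the onset of veraison, intermediate sugar and harvest ripeness. This gives 12 groups of 3 biological replicates, 36 libraries in all, each from the deseeded pericarp of 50 berries. All vines, in either crop, were grafted on an unknown rootstock, grown under a rain shelter and forced with hydrogen cyanamide, which breaks bud dormancy. In the first crop the terminal bud was left unsprayed, and in the second only the terminal bud and the pruning wound were smeared, so crop, season, leaf removal and the mode of forcing cannot be told apart. Whole pericarp holds skin and flesh together, and the labelled tissue was not checked against marker genes because the files pair no identifier with a name.

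Flavonols are colourless phenolics that build up mainly in the berry skin, where they absorb ultraviolet light and act as co-pigments of anthocyanins. MYBF1 is a MYB transcription factor that switches on flavonol synthase, the enzyme that turns dihydroflavonols into flavonols such as quercetin and kaempferol. GT5 then attaches glucuronic acid and GT6 glucose or galactose to the flavonol. HY5 and its homologue HYH are bZIP transcription factors that act below the light receptors, and in Arabidopsis they carry the response to ultraviolet B and switch on flavonol genes.

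The libraries held 5624449 to 18606068 estimated counts. Levels are CPM, counts relative to the library's total after scaling by edgeR's normalization factors, given for replicates 1, 2 and 3 in that order, and 3 counts, taken as the detection floor, correspond to 0.136 to 0.481 CPM depending on the library. Tests are edgeR quasi-likelihood tests on 19736 genes, with Benjamini-Hochberg adjustment over those genes and a threshold of 0.05. Replicates of several winter groups were close to copies: in 8 replicate pairs, each from a winter crop, the chi-square over its degrees of freedom was 1.46 to 1.89, which is barely above sampling noise, while the other 28 pairs had 2.42 to 53.4. The 8 pairs covered every library of Victoria winter E-L 36 and of Muscat Superior winter E-L 35, replicates 2 and 3 of Victoria winter E-L 38, and replicates 1 and 2 of Muscat Superior winter E-L 36. Results that lost their call when such libraries were summed are named below. Replicate 1 of summer Victoria at E-L 36 was closer to summer Victoria at E-L 38 (mean correlation over genes 0.965) than to its own group (0.947), and replicate 1 of summer Muscat Superior at E-L 36 was closer to summer Muscat Superior at E-L 38 (0.966 against 0.956).

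The winter crop of Victoria had more transcript of most flavonol-branch genes than the summer crop, while in Muscat Superior between 1 and 4 of the 7 genes were called between crops. At E-L 35 in Victoria, of the 7 genes 6 were called higher and 0 lower, against 42.1% of the 19736 tested genes called (21.8% higher and 20.3% lower). At E-L 36 in Victoria, of the 7 genes 5 were called higher and 1 lower, against 50.7% of the 19736 tested genes called (24.9% higher and 25.9% lower). At E-L 38 in Victoria, of the 7 genes 3 were called higher and 1 lower, against 54.3% of the 19736 tested genes called (26.5% higher and 27.8% lower). At E-L 38 the share of members called was close to that of all genes. At E-L 35 in Muscat Superior, of the 7 genes 1 was called higher and 0 lower, against 17.6% of the 19736 tested genes called (9.33% higher and 8.25% lower). At E-L 36 in Muscat Superior, of the 7 genes 2 were called higher and 2 lower, against 42.6% of the 19736 tested genes called (21.0% higher and 21.6% lower). At E-L 38 in Muscat Superior, of the 7 genes 1 was called higher and 1 lower, against 45.1% of the 19736 tested genes called (22.7% higher and 22.4% lower). At E-L 35 and E-L 38 these shares are not above the background. Because each library is a bulk sample of pericarp, fewer cells of a type and less RNA per cell cannot be told apart for any of these differences.

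The crop difference itself was compared between the cultivars by an interaction contrast, Muscat Superior minus Victoria. At E-L 35, of the 7 genes 0 were called higher and 2 lower, against 18.1% of the 19736 tested genes called (8.51% higher and 9.56% lower). At E-L 36, of the 7 genes 0 were called higher and 3 lower, against 18.7% of the 19736 tested genes called (9.23% higher and 9.44% lower). At E-L 38, of the 7 genes 1 was called higher and 3 lower, against 16.8% of the 19736 tested genes called (8.17% higher and 8.58% lower). Of the 9 calls, the 8 negative ones mean a winter-minus-summer difference that was smaller or more negative in Muscat Superior, and HY5 was among them at every stage.

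**Figure D1:**
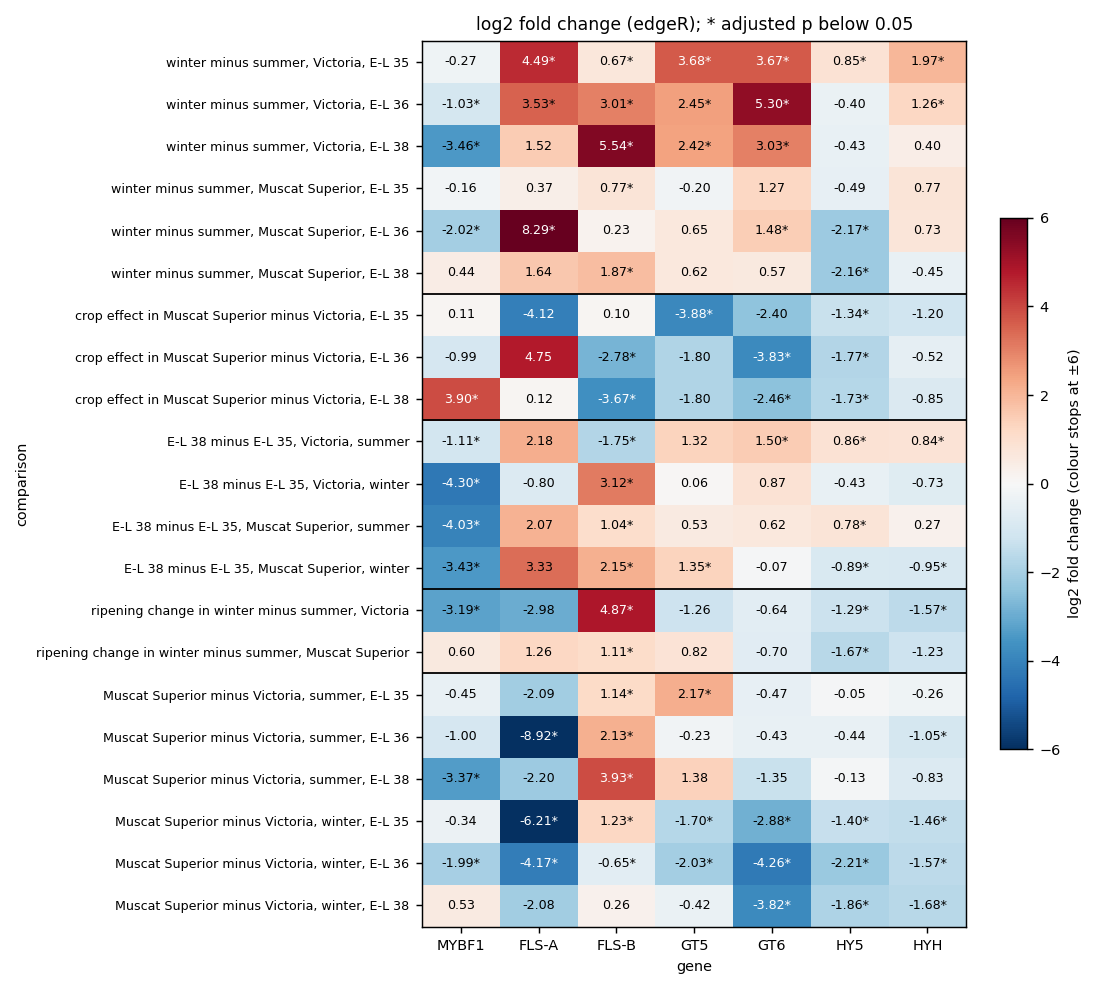
Fitted log2 fold changes of the 7 genes (columns) in the 21 comparisons (rows), coloured from blue (lower) to red (higher), with a star where edgeR's adjusted p was below 0.05. The winter-minus-summer rows of Victoria are red for the synthases and glycosyltransferases at every stage, and the E-L 38 minus E-L 35 rows are blue for MYBF1 in all 4 crops. Values of FLS-A that involve summer Muscat Superior at E-L 36, which had no count, are fitted values and set no bound.

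MYBF1, the flavonol regulator, was high at E-L 35 and fell with ripening in every crop. In Victoria the summer libraries held 8.20, 7.39 and 6.30 CPM at E-L 35, 2.04, 4.66 and 4.24 at E-L 36 and 4.03, 4.04 and 2.10 at E-L 38. The winter libraries of Victoria held 5.62, 8.18 and 4.48 CPM at E-L 35, 2.49, 1.37 and 1.37 at E-L 36 and 0, 0.332 and 0.536 at E-L 38. The crops overlapped at E-L 35 and E-L 36 and were apart at E-L 38, where 1 winter library had no count and the others had 3 and 5. The summer libraries of Muscat Superior held 5.48, 5.46 and 5.03 CPM at E-L 35, 0.568, 2.83 and 1.93 at E-L 36 and 0.294, 0.633 and 0.0804 at E-L 38. The winter libraries of Muscat Superior held 5.66, 3.97 and 4.72 CPM, 0.443, 0.347 and 0.525 CPM and 0.378, 0.174 and 0.745 CPM at the same stages. In this cultivar the crops were apart only at E-L 36, where every winter library was below every summer library.

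MYBF1 fell from E-L 35 to E-L 38 with a log2 fold change of -1.11 in summer Victoria (SE 0.38, adjusted p = 0.0208) and of -4.30 in winter Victoria (SE 0.57, adjusted p = 4.03e-07). The log2 fold changes in Muscat Superior were -4.03 in summer and -3.43 in winter (adjusted p = 1.77e-06 and 5.01e-06). The steeper fall in winter Victoria than in summer Victoria was itself called (difference -3.19, adjusted p = 7.17e-04). The crop contrast reached the threshold at E-L 38 in Victoria (log2 fold change -3.46, SE 0.59, adjusted p = 1.48e-05) and at E-L 36 in Muscat Superior (log2 fold change -2.02, SE 0.57, adjusted p = 0.0053). At E-L 36 in Victoria it passed narrowly (log2 fold change -1.03, SE 0.43, adjusted p = 0.0483), and the call was lost without replicate 2 or 3 of the summer group or of the winter group (log2 fold change -0.91 to -0.82, adjusted p 0.131 to 0.172), with near-identical libraries summed (0.244) and with the replicate block (0.0575). The Muscat Superior call at E-L 36 was lost without summer replicate 2 (-1.52, adjusted p = 0.0602), and the fall in summer Victoria without E-L 35 replicate 1 (-1.01, adjusted p = 0.0631) or E-L 38 replicate 3 (-0.85, 0.119) and with near-identical libraries summed (0.0528).

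Between cultivars, MYBF1 was lower in Muscat Superior at E-L 38 in summer (log2 fold change -3.37, SE 0.57, adjusted p = 2.13e-05) and at E-L 36 in winter (log2 fold change -1.99, SE 0.57, adjusted p = 0.0072). The winter call was lost without winter Victoria replicate 1 (-1.63, adjusted p = 0.0567) and with near-identical libraries summed (0.0836). At harvest MYBF1 was near the floor in winter Victoria and in both Muscat Superior crops, and above it in the summer Victoria libraries. Single libraries near the floor moved the fitted sizes: without winter Victoria E-L 38 replicate 3 the E-L 38 crop contrast was -4.22, the winter fall -5.06 and the difference between crops -3.95. Without summer Muscat Superior E-L 38 replicate 2 the fall there was -4.81 and the E-L 38 cultivar difference -4.17, and without winter Muscat Superior E-L 38 replicate 3 the winter fall was -4.14. Its group means ran from 7.30 CPM in summer Victoria at E-L 35 down to 0.289 CPM in winter Victoria at E-L 38, and 10 of the 11 neighbouring groups in that order overlapped in their library ranges.

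**Figure D2:**
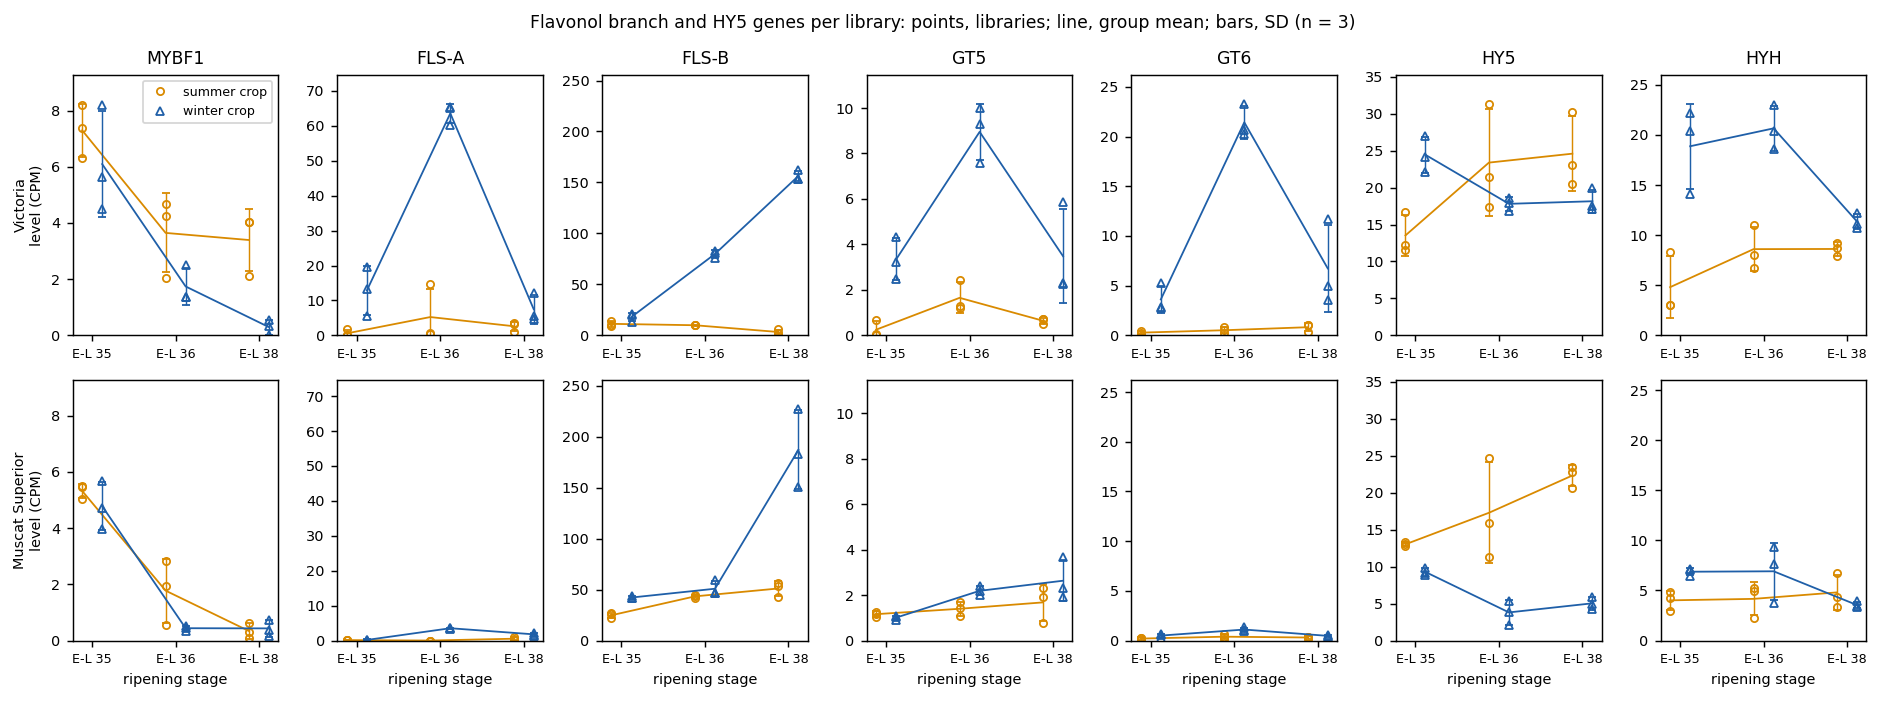
Levels in CPM of the 7 genes (columns of panels) at the 3 stages in Victoria (top) and Muscat Superior (bottom), for summer and winter crops. Points are libraries, lines join group means and bars are SD (n = 3). FLS-A, GT5 and GT6 peak in winter Victoria at E-L 36, FLS-B is highest at E-L 38 in the winter crops, and HY5 is lowest in winter Muscat Superior.

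FLS-B was the more abundant flavonol synthase per length, by mean FPKM, in all 12 groups and, in Victoria, its winter excess widened with ripening. In summer Victoria at E-L 38 the means were 2.22 FPKM for FLS-B and 1.82 for FLS-A, but FLS-A was higher in replicates 2 and 3. For FLS-B, the summer libraries of Victoria held 10.3, 9.16 and 14.4 CPM at E-L 35, 9.70, 10.3 and 9.79 at E-L 36 and 5.78, 2.14 and 1.91 at E-L 38. The winter libraries of Victoria held 13.2, 19.7 and 21.2 CPM at E-L 35, 81.3, 82.7 and 75.6 at E-L 36 and 154, 153 and 162 at E-L 38. The crops overlapped at E-L 35 and were far apart at the later stages, with the lowest winter library several-fold above the highest summer library. The winter-minus-summer log2 fold change was 3.01 at E-L 36 (SE 0.22, adjusted p = 2.20e-11) and 5.54 at E-L 38 (SE 0.26, adjusted p = 9.23e-16), the latter a 47.7-fold ratio of group means. Without summer replicate 1 at E-L 38, the highest of its group, the ratio was 77.2-fold (log2 fold change 6.27). At E-L 35 the log2 fold change was 0.67 (adjusted p = 0.0145), and the call was lost without summer replicate 2 (0.55, adjusted p = 0.0777), winter replicate 2 (0.61, 0.0508) or winter replicate 3 (0.53, 0.0892). It was also lost on log2(FPKM + 1) (0.51, adjusted p = 0.0508), on log2(FPKM + 0.1) (0.55, 0.0858) and with only the groups compared (0.68, 0.0563).

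In Muscat Superior, FLS-B was higher in winter at E-L 35 and E-L 38. The summer libraries held 21.8, 26.6 and 26.0 CPM at E-L 35, 44.3, 43.5 and 42.2 at E-L 36 and 56.4, 43.0 and 53.8 at E-L 38. The winter libraries held 41.3, 43.8 and 41.4 CPM, 46.9, 46.3 and 59.3 CPM and 150.3, 183 and 227 CPM at the same stages. Winter libraries were above summer libraries at all 3 stages, and the fold changes were 0.77 (adjusted p = 0.0091) at E-L 35, 0.23 (adjusted p = 0.378) at E-L 36 and 1.87 (adjusted p = 2.27e-08) at E-L 38 on the log2 scale. The E-L 35 call was lost without summer replicate 1 (0.68, adjusted p = 0.0559) and with near-identical libraries summed (0.222), where winter Muscat Superior at E-L 35 is 1 library. The smaller crop difference in Muscat Superior was called at E-L 36 (-2.78, adjusted p = 2.65e-07) and at E-L 38 (-3.67, adjusted p = 1.29e-08).

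With ripening FLS-B went down in 1 crop and up in 3. It fell from E-L 35 to E-L 38 in summer Victoria by a log2 fold change of -1.75 (adjusted p = 3.17e-06) and rose by 3.12 in winter Victoria, 1.04 in summer Muscat Superior and 2.15 in winter Muscat Superior (adjusted p = 7.40e-12, 2.37e-04 and 2.34e-09). The difference in ripening change between crops was 4.87 (adjusted p = 1.18e-11) in Victoria and 1.11 (adjusted p = 0.0043) in Muscat Superior; the latter was lost with near-identical libraries summed (adjusted p = 0.0884). MYBF1 fell in the same 4 intervals, so the regulator and FLS-B moved in opposite directions in 3 of the 4 crops. In the summer crop FLS-B was higher in Muscat Superior than in Victoria at every stage, by 1.14, 2.13 and 3.93 on the log2 scale (adjusted p = 6.92e-05, 1.66e-08 and 1.07e-12). Without summer Victoria E-L 38 replicate 1 the cultivar difference at E-L 38 was 4.66, the fall in summer Victoria -2.47, the difference in ripening change in Victoria 5.60 and the difference of crop effects at E-L 38 -4.40. In the winter crop the cultivar difference was 1.23 (adjusted p = 5.89e-05) at E-L 35, -0.65 (adjusted p = 0.0112) at E-L 36 and 0.26 (adjusted p = 0.349) at E-L 38. The E-L 36 call was lost without winter Muscat Superior replicate 1 (-0.60, adjusted p = 0.0501) or 2 (-0.59, 0.0528) and with near-identical libraries summed (0.27).

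FLS-A was mainly a transcript of winter Victoria. In Victoria the summer libraries held 1.69, 0 and 0 CPM at E-L 35, 14.6, 0.636 and 0.505 at E-L 36 and 1.10, 3.21 and 3.54 at E-L 38. The winter libraries held 19.6, 13.3 and 5.60 CPM, 65.1, 65.4 and 60.3 CPM and 12.2, 4.64 and 5.47 CPM at the same stages. Every winter library was above every summer library of its stage, and the highest summer value was that of replicate 1 at E-L 36, the library that stood closer to E-L 38. The crop contrast was called at E-L 35 (log2 fold change 4.49, SE 0.93, adjusted p = 4.04e-04) and at E-L 36 (log2 fold change 3.53, SE 0.76, adjusted p = 4.16e-04). The sizes depend on single summer libraries. Without replicate 1 at E-L 35 the summer group had no count and winter was at least 85.8-fold higher, without replicate 2 the log2 fold change was 3.88, and without replicate 1 at E-L 36 it was 6.77. At E-L 38 it was 1.52 (adjusted p = 0.135), short of the threshold. In Muscat Superior no library exceeded 3.73 CPM. The 3 summer libraries at E-L 36 had no count, against 3.37, 3.73 and 3.47 CPM in winter, at least 10.9-fold higher when the summer group is set at the floor of 3 counts in each library (adjusted p = 0.0066). At E-L 35 both Muscat Superior crops were at or under 3 counts in every library, so no fold is given. At E-L 38 they held 0.0981, 0.422 and 1.05 CPM in summer and 2.27, 1.39 and 1.68 CPM in winter, which did not pass the test (1.64, adjusted p = 0.299).

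FLS-A was lower in Muscat Superior than in Victoria in the winter crop at E-L 35 (fitted log2 difference -6.21, adjusted p = 4.81e-04, from 2, 0 and 3 counts in the Muscat Superior libraries) and at E-L 36 (-4.17, adjusted p = 2.14e-04), while at E-L 38 the difference was -2.08 (adjusted p = 0.086). The E-L 35 value was -5.60 without Muscat Superior replicate 2 and -6.85 without replicate 3. In the summer crop at E-L 36, Muscat Superior had no count, and the Victoria mean rested on replicate 1. The bound was at least 16.3-fold lower in Muscat Superior with that library (adjusted p = 0.0022) and at least 1.77-fold lower without it (adjusted p = 0.133).

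Per transcript length, on the deposited FPKM scale that allows levels of different genes to be compared, the synthases contributed unequal shares. FLS-A made up 14.1%, 0% and 0% of the summed FPKM of FLS-A and FLS-B in summer Victoria at E-L 35, 62.7%, 5.63% and 5.19% at E-L 36 and 16.1%, 62.7% and 65.0% at E-L 38. In winter Victoria its share was 58.0%, 40.9% and 20.8% at E-L 35, 43.0%, 45.1% and 43.8% at E-L 36 and 7.51%, 2.91% and 3.25% at E-L 38. The share was similar among the winter E-L 36 libraries, but these were close to copies of each other, so their agreement does not measure spread between berry samples. It was low at winter harvest. In summer the share was split within groups, with replicate 1 opposite to replicates 2 and 3 at E-L 36 and at E-L 38. In Muscat Superior the highest share was 6.71% ± 0.980 (SD, n = 3), in winter at E-L 36. FLS-B rose to 110.1 ± 5.08 FPKM in winter Victoria and 126 ± 27.8 FPKM in winter Muscat Superior at E-L 38 (mean ± SD, n = 3).

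**Figure D3:**
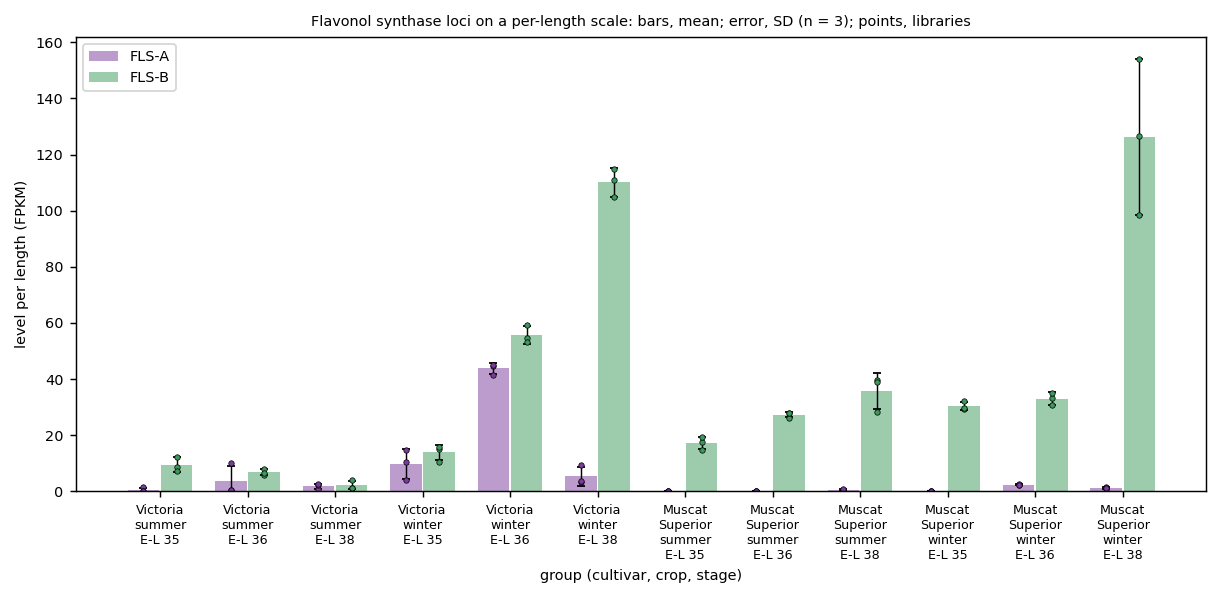
Levels per length (FPKM) of FLS-A and FLS-B in the 12 groups. Bars are group means, error bars SD (n = 3) and points libraries. FLS-A is visible beside FLS-B mainly in winter Victoria at E-L 35 and E-L 36, and FLS-B reaches its highest levels in both winter crops at E-L 38.

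Read assignment was whole for the synthases: every listed count of either was a whole number, so no fractional sharing of reads between them was recorded. The 16 other identifiers within 100 numbers of the synthases on the same scaffold included 9 with a mean of at least 1 FPKM, of which VIT_218s0001g03450 had the highest mean (147.4 FPKM). The files do not annotate it, and whether reads of similar copies went to it was not tested.

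GT5 and GT6, the flavonol glycosyltransferases, were higher in winter Victoria at all 3 stages. GT6 held 0.249, 0.408 and 0.163 CPM in summer Victoria at E-L 35, 0.815, 0.530 and 0.202 at E-L 36 and 1.01, 1.07 and 0.382 at E-L 38. In winter Victoria it held 5.22, 2.89 and 2.74 CPM, 20.3, 23.3 and 20.7 CPM and 11.7, 3.54 and 4.93 CPM at those stages. No winter library overlapped the summer range of its stage, and the log2 fold changes were 3.67, 5.30 and 3.03 (adjusted p = 6.03e-07, 1.81e-10 and 1.04e-06). GT5 held 0.696, 0 and 0.0543 CPM in summer Victoria at E-L 35, 1.30, 2.44 and 1.21 at E-L 36 and 0.734, 0.713 and 0.478 at E-L 38. In winter Victoria GT5 held 3.21, 4.33 and 2.49 CPM, 9.31, 9.98 and 7.57 CPM and 5.86, 2.32 and 2.25 CPM, each library above the summer range of its stage. Its log2 fold changes at the 3 stages were 3.68, 2.45 and 2.42 (adjusted p = 9.41e-06, 7.16e-05 and 5.14e-04). At E-L 35 the summer counts of GT5 were 13.96, 0 and 1.28, and the fitted value was 6.52 without replicate 1 and 3.08 without replicate 2, and 1.33 on log2(FPKM + 1), which understates the change of low genes. At E-L 38, without winter replicate 1, it was 1.82 for GT5 and 2.37 for GT6.

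The glycosyltransferases were low in Muscat Superior. GT6 held 0.0731, 0.295 and 0.225 CPM at E-L 35, 0.114, 0.404 and 0.644 at E-L 36 and 0.196, 0.316 and 0.402 at E-L 38 in the summer crop, and 0.680, 0.541 and 0.277, 1.33, 1.04 and 0.946 and 0.504, 0.347 and 0.559 in the winter crop. Apart from winter Muscat Superior at E-L 36, with 15, 12 and 9 counts, these are values near the floor. All of them are far below the 20.3 to 23.3 CPM of winter Victoria at E-L 36. GT6 was called higher in winter at E-L 36 (log2 fold change 1.48, SE 0.58, adjusted p = 0.0395), but not without summer replicate 1 (1.07, adjusted p = 0.165), summer replicate 2 (1.50, 0.0802), winter replicate 1 (1.32, 0.113) or winter replicate 2 (1.52, 0.0624), nor with near-identical libraries summed (0.0747). GT5 ranged from 0.784 to 3.66 CPM over the 18 Muscat Superior libraries and was not called between crops at any stage. The difference of crop effects between cultivars was called for GT5 at E-L 35 (-3.88, adjusted p = 0.0012) and for GT6 at E-L 36 (-3.83, adjusted p = 0.0016) and at E-L 38 (-2.46, adjusted p = 0.0474). The E-L 38 call was lost when any of 8 single libraries was left out (adjusted p 0.0536 to 0.181, log2 difference -2.69 to -1.80): replicate 3 of summer Victoria, replicate 1 of winter Victoria and each of the 6 Muscat Superior libraries. It was also lost with near-identical libraries summed (adjusted p = 0.0571). The size of the GT5 difference at E-L 35 moved to -6.71 without summer Victoria replicate 1 and to -3.27 without replicate 2.

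The deposited counts of GT5 and GT6 were fractional in most libraries, as where reads are divided between similar loci. Their summed count was whole within 0.05 in 27 of 36 libraries, whereas GT5 alone was whole in 12, so the split between them is uncertain, and their sum was tested as an alternative chosen after the data were seen. In winter Victoria at E-L 36, where the sum was highest, it was not whole in any library (320.67, 317.28 and 269.57 counts). Whether reads there were also divided with further loci was not tested. The sum was 0.944, 0.408 and 0.217 CPM in summer Victoria and 8.33, 7.22 and 5.23 CPM in winter Victoria at E-L 35, and 2.12, 2.97 and 1.41 CPM against 29.6, 33.3 and 28.4 CPM at E-L 36. At E-L 38 it was 1.74, 1.78 and 0.860 CPM in summer and 17.6, 5.86 and 7.18 CPM in winter. The winter libraries were above the summer libraries throughout, with log2 fold changes of 3.69 (SE 0.42, adjusted p = 9.13e-08), 3.81 (SE 0.37, adjusted p = 2.11e-09) and 2.80 (SE 0.39, adjusted p = 7.75e-07). In Muscat Superior the sum differed between crops by 0.14 (SE 0.45, adjusted p = 0.863), 0.88 (SE 0.41, adjusted p = 0.0819) and 0.61 (SE 0.40, adjusted p = 0.222), none past the threshold, so the GT6 call at E-L 36 did not hold for the sum. The 19 identifiers within 100 numbers of GT5 and GT6 included 9 with a mean of at least 1 FPKM, led by VIT_211s0052g01710 (78.1 FPKM).

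Over ripening, GT6 rose from E-L 35 to E-L 38 in summer Victoria (1.50, adjusted p = 0.0308) and GT5 rose in winter Muscat Superior (1.35, adjusted p = 0.0347). The GT6 call was lost without E-L 35 replicate 1 (1.44, adjusted p = 0.0719) or 3 (1.27, 0.102) and without E-L 38 replicate 1 (1.30, 0.126) or 2 (1.30, 0.111). Of 14 alternative fits, 7 kept it. The GT5 call was lost without any of the 3 E-L 35 libraries or E-L 38 replicates 1 or 3 (log2 fold change 1.06 to 1.43, adjusted p 0.0528 to 0.146), and with near-identical libraries summed (0.218). Between cultivars in winter, GT6 was lower in Muscat Superior at all 3 stages, with differences of -2.88, -4.26 and -3.82 on the log2 scale (adjusted p = 4.25e-05, 2.87e-09 and 3.44e-07). GT5 was lower at E-L 35 (-1.70, adjusted p = 0.0135) and E-L 36 (-2.03, adjusted p = 7.32e-04), and in the summer crop at E-L 35 it was higher in Muscat Superior (2.17, adjusted p = 0.0042). That summer call was lost on log2(FPKM + 1) (0.48, adjusted p = 0.0593) and with only the groups compared (0.053), and its size was 5.02 without summer Victoria replicate 1 and 1.58 without replicate 2. Without winter Victoria replicate 1, the GT6 difference at E-L 38 was -3.16. The winter GT5 calls were lost with near-identical libraries summed (adjusted p = 0.184 and 0.0526), and that at E-L 35 also without winter Victoria replicate 2 (-1.48, 0.0565) or winter Muscat Superior replicate 3 (-1.64, 0.0503).

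HY5, the light-response bZIP factor, was lower in winter than in summer Muscat Superior at E-L 36 and E-L 38, and in Victoria no contrast toward lower winter levels passed the test on counts. In Muscat Superior the summer libraries held 13.0, 12.8 and 13.3 CPM at E-L 35, 11.2, 24.7 and 15.9 at E-L 36 and 22.8, 20.7 and 23.5 at E-L 38. The winter libraries held 9.85, 9.10 and 8.88 CPM, 5.41, 3.91 and 2.10 CPM and 5.92, 4.25 and 4.94 CPM at the same stages. Every winter library lay below every summer library of its stage, and the log2 fold change was -2.17 (adjusted p = 1.61e-07) at E-L 36, -2.16 (adjusted p = 8.01e-08) at E-L 38 and -0.49 (adjusted p = 0.163) at E-L 35. In Victoria HY5 held 16.8, 11.6 and 12.2 CPM in summer and 24.2, 27.0 and 22.1 CPM in winter at E-L 35, where winter was higher (log2 fold change 0.85, SE 0.23, adjusted p = 0.0036). That call was lost on the deposited FPKM scale (adjusted p = 0.0827 with log2(FPKM + 1) and 0.135 with log2(FPKM + 0.1)). At E-L 36 Victoria held 31.4, 21.4 and 17.4 CPM in summer and 18.6, 16.8 and 18.0 CPM in winter, and at E-L 38 23.0, 30.3 and 20.5 CPM and 19.9, 17.5 and 17.1 CPM. The crops overlapped at E-L 36 and were narrowly apart at E-L 38, and these contrasts were -0.40 (adjusted p = 0.147) and -0.43 (adjusted p = 0.109). On log2(FPKM + 1) the E-L 36 contrast in Victoria was called lower in winter (-0.63, adjusted p = 0.0289).

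The crop effect on HY5 was lower in Muscat Superior than in Victoria at every stage, with differences of -1.34 at E-L 35, -1.77 at E-L 36 and -1.73 at E-L 38 on the log2 scale (adjusted p = 0.0054, 5.87e-04 and 7.48e-04). The E-L 35 call was lost on log2(FPKM + 0.1) (-1.04, adjusted p = 0.0729) and with near-identical libraries summed (-1.35). HY5 rose from E-L 35 to E-L 38 in summer Victoria (0.86, adjusted p = 0.0029) and in summer Muscat Superior (0.78, adjusted p = 0.0091), and fell in winter Muscat Superior (-0.89, adjusted p = 0.0064). On the FPKM scales the rise in summer Victoria was lost (adjusted p = 0.116 and 0.174), and the fall in winter Muscat Superior was lost with near-identical libraries summed (0.0676). The ripening change differed between crops in Victoria (-1.29, adjusted p = 0.002) and in Muscat Superior (-1.67, adjusted p = 6.29e-04). In the winter crop HY5 was lower in Muscat Superior than in Victoria at all 3 stages, with differences of -1.40, -2.21 and -1.86 on the log2 scale (adjusted p = 5.26e-05, 1.24e-07 and 2.12e-06), and in summer the cultivars' HY5 was not called different at any stage.

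The transcript length that the authors' counting assigned to HY5, a gene with 5 listed transcripts, was longer in winter than in summer in all 6 crop comparisons, with no overlap between libraries. In Victoria it was 1001 ± 43.5 bases in summer and 1128 ± 8.18 in winter at E-L 35, 1040.2 ± 37.1 and 1251 ± 94.0 at E-L 36, and 1077 ± 25.2 and 1145 ± 37.4 at E-L 38 (mean ± SD, n = 3). In Muscat Superior it was 1089 ± 23.1 bases and 1144 ± 22.1 at E-L 35, 1044 ± 64.8 and 1302 ± 183 at E-L 36, and 1074 ± 42.3 and 1449 ± 167 at E-L 38. Of the 7467 tested genes with several transcripts and a length in every library, 11 were longer in winter without overlap in all 6 (0.147%) and 8 were shorter (0.107%). HY5 was singled out for this after its values were seen, and an exact two-sided permutation test of 3 against 3 cannot go below p = 0.10. FPKM is a per-length value and was used without edgeR's normalization factors. At E-L 35 in Victoria the contrast of HY5 was 0.51 on log2(FPKM + 1) against 0.85 on counts, and the source of that gap was not tested.

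HYH, the homologue of HY5, was higher in winter Victoria early in ripening. In Victoria the summer libraries held 8.35, 3.04 and 3.04 CPM at E-L 35, 11.0, 8.05 and 6.76 at E-L 36 and 9.26, 8.67 and 7.93 at E-L 38. The winter libraries held 22.2, 20.4 and 14.1 CPM, 20.4, 23.0 and 18.6 CPM and 12.2, 10.7 and 11.2 CPM at the same stages. Winter libraries were above summer libraries at all 3 stages, and the contrast was called at E-L 35 (log2 fold change 1.97, SE 0.32, adjusted p = 1.92e-05) and E-L 36 (log2 fold change 1.26, SE 0.32, adjusted p = 0.0016) and was 0.40 (adjusted p = 0.313) at E-L 38. In Muscat Superior HYH ranged from 2.27 to 9.31 CPM over the 18 libraries, and no crop contrast was called, with log2 fold changes of 0.77 (adjusted p = 0.12), 0.73 (adjusted p = 0.0934) and -0.45 (adjusted p = 0.329) at the 3 stages. At E-L 35 every winter library (6.46 to 7.12 CPM) was above every summer library (2.93 to 4.83). The E-L 36 contrast was called on log2(FPKM + 1) (0.72, adjusted p = 0.0362), on log2(FPKM + 0.1) (0.92, 0.0313) and without winter replicate 3 (1.02, 0.0229). The difference of crop effects between cultivars was not called at any stage (-1.20, -0.52 and -0.85, adjusted p = 0.0734, 0.485 and 0.253). Without summer Victoria replicate 1 it was called at E-L 35 (-1.86, 0.00265). In winter HYH was lower in Muscat Superior than in Victoria at every stage, with differences of -1.46, -1.57 and -1.68 on the log2 scale (adjusted p = 0.001, 3.28e-04 and 5.66e-04), the first lost with near-identical libraries summed (adjusted p = 0.0811).

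HYH passed narrowly in 3 further contrasts. It rose with ripening in summer Victoria (0.84, adjusted p = 0.038), fell in winter Muscat Superior (-0.95, adjusted p = 0.0294) and was lower in Muscat Superior at E-L 36 in summer (-1.05, adjusted p = 0.0184). Of 15 alternative fits, 4 kept the first call, 9 the second and 11 the third. The first was lost without E-L 35 replicate 2 or 3 or any E-L 38 library (log2 fold change 0.59 to 0.90, adjusted p 0.0539 to 0.185) and with near-identical libraries summed (0.0642). The second was lost without E-L 35 replicate 2 or 3 or any E-L 38 library (-1.04 to -0.90, adjusted p 0.0511 to 0.082) and with near-identical libraries summed (0.155). The third was lost without replicate 1 of summer Victoria (-0.82, adjusted p = 0.0962) or of summer Muscat Superior (-0.76, 0.107), the libraries that stood closer to E-L 38. The ripening change of HYH was more negative in winter than in summer in Victoria (-1.57, adjusted p = 0.0062). Without summer Victoria E-L 35 replicate 1, the highest HYH library of its group, this difference was -2.24, the rise in summer Victoria 1.51 and the winter-minus-summer contrast at E-L 35 2.64.

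Over ripening, MYBF1 fell in all 4 crops and FLS-B rose in 3 of them. In summer Victoria, of the 7 genes 3 were called higher and 2 lower, against 42.9% of the 19736 tested genes called (20.8% higher and 22.1% lower). In winter Victoria, of the 7 genes 1 was called higher and 1 lower, against 51.6% of the 19736 tested genes called (24.7% higher and 26.9% lower). In summer Muscat Superior, of the 7 genes 2 were called higher and 1 lower, against 34.1% of the 19736 tested genes called (16.4% higher and 17.7% lower). In winter Muscat Superior, of the 7 genes 2 were called higher and 3 lower, against 46.2% of the 19736 tested genes called (22.6% higher and 23.6% lower). The share of members called was below the all-gene share in winter Victoria. For the difference in ripening change between crops, in Victoria of the 7 genes 1 was called higher and 3 lower, against 42.8% of the 19736 tested genes called (19.9% higher and 22.9% lower), and in Muscat Superior of the 7 genes 1 was called higher and 1 lower, against 27.1% of the 19736 tested genes called (13.2% higher and 13.8% lower).

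Between cultivars, the genes were mostly lower in Muscat Superior in the winter crop and mixed in the summer crop. In summer at E-L 35, of the 7 genes 2 were called higher and 0 lower, against 44.6% of the 19736 tested genes called (22.2% higher and 22.4% lower). In summer at E-L 36, of the 7 genes 1 was called higher and 2 lower, against 38.0% of the 19736 tested genes called (18.8% higher and 19.2% lower). In summer at E-L 38, of the 7 genes 1 was called higher and 1 lower, against 41.3% of the 19736 tested genes called (20.4% higher and 20.9% lower). In winter at E-L 35, of the 7 genes 1 was called higher and 5 lower, against 30.1% of the 19736 tested genes called (14.8% higher and 15.3% lower). In winter at E-L 36, of the 7 genes 0 were called higher and 7 lower, against 35.0% of the 19736 tested genes called (17.6% higher and 17.4% lower), and with near-identical libraries summed 4 of the 7 were called. In winter at E-L 38, of the 7 genes 0 were called higher and 3 lower, against 27.9% of the 19736 tested genes called (13.9% higher and 14.0% lower). FLS-B was the exception at E-L 35 in winter, where it was the gene that was higher in Muscat Superior.

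Among themselves, the 7 genes did not form a single pattern over the 12 group means of log2(CPM + 1). The closest pair was FLS-A with GT6 (Pearson r = 0.94), followed by FLS-A with HYH (0.89) and by GT5 with GT6, FLS-A with GT5 and GT6 with HYH (each 0.86). GT5 and GT6 may share reads, which bears on their likeness. MYBF1 ran opposite to FLS-B (-0.71) and had no close partner among the 7, HY5 and FLS-B gave -0.47, and HY5 and HYH gave 0.42. These are descriptions over 12 points that share cultivar, crop and stage.

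**Figure D4:**
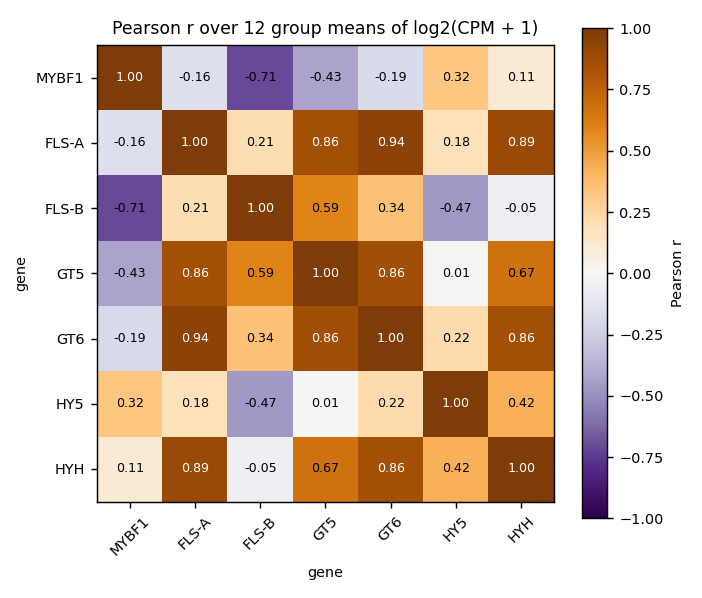
Pearson r between the 7 genes (both axes) over 12 group means of log2(CPM + 1), from purple (negative) to orange (positive). FLS-A, GT5, GT6 and HYH form a block of positive values, and MYBF1 and FLS-B are negative to each other.

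For each member, the gene outside the 7 with the most similar profile over the 12 group means, of 12607 genes compared with a highest group mean of at least 10 CPM, was found by Pearson r. For MYBF1 it was VIT_201s0011g00120 (r = 0.971), for FLS-A VIT_206s0004g05510 (0.945) and for FLS-B VIT_204s0008g03060 (0.967). For GT5 it was VIT_208s0007g04300 (0.933) and for GT6 VIT_213s0067g02560 (0.972). For HY5 it was VIT_209s0002g08130 (0.959) and for HYH VIT_202s0033g00800 (0.948). The files annotate none of these identifiers. FLS-B had 125 genes with r of at least 0.9 and GT5 had 7.

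The neighbouring pathway was followed with lists of loci whose identifiers come from memory of published grape gene families, with no annotation at hand to check them. The early flavonoid list, which makes the precursors of flavonols, had 7 loci tested, the phenylpropanoid entry list, which feeds it, 5, the anthocyanin and tannin list, which competes for the same precursors, 9, and the light signalling list 2. In winter against summer Victoria at E-L 35, the early flavonoid list had 5 up and 0 down (median log2 fold change 1.96), phenylpropanoid entry 5 up and 0 down (median log2 fold change 3.28) and the anthocyanin and tannin list 5 up and 1 down (median log2 fold change 1.23), beside a median of -0.014 over all tested genes. At E-L 36 these were 3 up and 2 down (median log2 fold change 0.43), 2 up and 0 down (median log2 fold change 0.26) and 3 up and 3 down (median log2 fold change -0.51). At E-L 38 they were 4 up and 1 down (median log2 fold change 1.52), 1 up and 1 down (median log2 fold change -0.69) and 1 up and 1 down (median log2 fold change -0.27). Of all tested genes, 21.8% were called higher and 20.3% lower at E-L 35, 24.9% and 25.9% at E-L 36, and 26.5% and 27.8% at E-L 38. The medians of the early flavonoid and phenylpropanoid entry lists were thus highest at E-L 35. Of the flavonol genes, FLS-A and GT5 had their largest fitted winter difference in Victoria at that stage, GT6 at E-L 36 and FLS-B at E-L 38. For FLS-A and GT5 this order depended on the fit. Without summer replicate 1 of the stage, FLS-A was 10.1 at E-L 35 and 6.77 at E-L 36, against 4.49 and 3.53 with all libraries. Among the alternative fits, the lowest values at E-L 35 were 2.855 for FLS-A and 1.326 for GT5. At E-L 36 the lowest were 3.016 and 1.604.

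In Muscat Superior, every early flavonoid and phenylpropanoid entry locus called between the crops was higher in winter. Of all tested genes, 9.33% were called higher and 8.25% lower at E-L 35, 21.0% and 21.6% at E-L 36, and 22.7% and 22.4% at E-L 38. The early flavonoid list had 6 up and 0 down (median log2 fold change 1.52) at E-L 35, 5 up and 0 down (median log2 fold change 1.59) at E-L 36 and 6 up and 0 down (median log2 fold change 1.47) at E-L 38. Phenylpropanoid entry had 4 up and 0 down (median log2 fold change 2.28), 5 up and 0 down (median log2 fold change 2.56) and 3 up and 0 down (median log2 fold change 1.42), and the anthocyanin and tannin list 7 up and 0 down (median log2 fold change 1.47), 5 up and 1 down (median log2 fold change 0.45) and 3 up and 0 down (median log2 fold change 0.74). The light signalling list had 0 up and 1 down (median log2 fold change -0.038), 1 up and 0 down (median log2 fold change 0.50) and 2 up and 0 down (median log2 fold change 0.74). In Victoria the light signalling list had 0 up and 0 down (median log2 fold change -0.035), 1 up and 0 down (median log2 fold change 0.69) and 2 up and 0 down (median log2 fold change 0.95). Over ripening in summer Victoria, the early flavonoid, phenylpropanoid entry and anthocyanin and tannin lists had, in that order, 2 up and 0 down (median log2 fold change -0.05), 5 up and 0 down (median log2 fold change 1.30) and 1 up and 3 down (median log2 fold change 0.10). For the same lists winter Victoria gave 1 up and 3 down (median log2 fold change -0.68), 0 up and 4 down (median log2 fold change -2.73) and 0 up and 5 down (median log2 fold change -1.13). Summer Muscat Superior gave 1 up and 0 down (median log2 fold change 0.47), 4 up and 0 down (median log2 fold change 1.29) and 1 up and 4 down (median log2 fold change 0.17), and winter Muscat Superior 1 up and 0 down (median log2 fold change 0.43), 0 up and 0 down (median log2 fold change 0.22) and 0 up and 4 down (median log2 fold change -0.52). Over ripening, 42.9% and 51.6% of all tested genes were called in summer and winter Victoria, and 34.1% and 46.2% in summer and winter Muscat Superior. The lists are small and were chosen with these data known, so the counts describe them only.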

How the data were processed

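Berry RNA was sequenced in 36 libraries of 12 groups. Per the file headers, each deposited file gives for every gene its transcripts, lengths, an expected count and an FPKM value. The deposited expected counts are estimated counts, which need not be whole, and the deposited FPKM values are relative to library size and transcript length. The length the authors list varies between libraries for genes with several transcripts. Per the submitters' processing notes Bowtie was used, and DESeq2 is named in the series text as the tool with which the authors compared crops. For the counting program, genome build and annotation, nothing is stated in the sources at hand.

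Groups followed the labelled cultivar, crop and stage. A gene absent from a file was given 0. Expected counts were rounded to whole numbers, genes were filtered by edgeR's filterByExpr (19736 kept) and 1 model with 12 group means was fitted to all libraries by edgeR 4.0.16 (R 4.3.3; TMM factors 0.851 to 1.20; 24 residual degrees of freedom; common biological coefficient of variation 0.172), with quasi-likelihood tests for 21 contrasts. CPM were computed here from the counts. Alternatives were DESeq2 1.42.0, its size factors in edgeR, no filter, limma 3.58.1 on log2(FPKM + 1) and log2(FPKM + 0.1), the replicate number as a block, only the groups compared, with the first replicates of Victoria summer E-L 36 and Victoria summer E-L 38 omitted, near-identical libraries summed (30 libraries), and each replicate left out. The fitting code was tested on simulated data. Replicates are separate berry samples per the labels, and floors cover counting error only.

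The genes named were all 7 members, for each the 1 gene of most similar profile (highest group mean of at least 10 CPM), and the neighbouring identifiers of highest mean level. The members and lists were chosen with earlier results of these data known. The gene table at hand matched 0 of the 28119 identifiers.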

Additional observations from a re-analysis of the deposited data

Results flagged for a closer look

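The results here are differences between groups that were tested directly, as an interaction contrast in edgeR with p adjusted over all 19736 genes, and passed 0.05. The crop effect (winter minus summer, log2 scale) was smaller or more negative in Muscat Superior than in Victoria at E-L 35 by -3.88 for GT5 and -1.34 for HY5. This HY5 call was lost on log2(FPKM + 0.1) (-1.04, adjusted p = 0.0729) and with near-identical libraries summed (-1.35). At E-L 36 the differences were -2.78 for FLS-B, -3.83 for GT6 and -1.77 for HY5. At E-L 38 they were -3.67 for FLS-B, -2.46 for GT6 and -1.73 for HY5, while for MYBF1 the crop effect was higher in Muscat Superior by 3.90, a call lost without winter Muscat Superior replicate 3 (3.19, adjusted p = 0.0847). MYBF1 was near the detection floor at that stage in 3 of the 4 groups compared.

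The ripening change (E-L 38 minus E-L 35) differed between winter and summer in Victoria by -3.19 for MYBF1, 4.87 for FLS-B, -1.29 for HY5 and -1.57 for HYH. In Muscat Superior it differed by 1.11 for FLS-B and -1.67 for HY5. HYH in Muscat Superior had -1.23 (adjusted p = 0.0683), which did not pass. Single libraries moved some sizes by over 1.5 times. Without summer Victoria E-L 35 replicate 1 the GT5 difference at E-L 35 was -6.71 and the HYH difference in Victoria -2.24. Without summer Victoria E-L 38 replicate 1 the FLS-B values were -4.40 at E-L 38 and 5.60 for ripening in Victoria. For MYBF1 at E-L 38 the value was 4.66 without winter Victoria replicate 3 and 4.69 without summer Muscat Superior replicate 2, and its ripening difference in Victoria was -3.95 without winter Victoria E-L 38 replicate 3. GT6 at E-L 38 passed narrowly (adjusted p = 0.0474), and 10 of 21 alternative fits kept its call. Among the fits that lost it was the one without winter Victoria replicate 1 (-1.80, adjusted p = 0.111).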

How the results depend on the processing

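Of 147 gene-by-comparison results, 76 were called and 51 of these stayed called under every alternative named in the processing, the GT5 and GT6 sum aside; of the 71 uncalled, 43 stayed so. Results are counts of the 7 genes called. With near-identical libraries summed, which leaves some groups with 1 library assumed to vary like the others, the counts became 0 (from 1) for the crop in Muscat Superior at E-L 35, 1 (from 2) for crop by cultivar at E-L 35, 3 (from 5) for ripening in summer Victoria, 2 (from 5) for ripening in winter Muscat Superior, 1 (from 2) for ripening by crop in Muscat Superior, and 4 (from 7) for cultivar in winter at E-L 36. Fitting only the groups compared gave 3 (from 1) and 2 (from 4) for the crop in Muscat Superior at E-L 35 and E-L 36, 3 (from 5) and 4 (from 2) for ripening in summer and winter Victoria, and 1 (from 3) and 4 (from 2) for cultivar in summer at E-L 36 and E-L 38; 19 of the 147 results had no value there. On log2(FPKM + 1) the counts were 4 (from 2) and 5 (from 3) for crop by cultivar at E-L 35 and E-L 36, 2 (from 5) for ripening in summer Victoria and 5 (from 3) for cultivar in summer at E-L 36. DESeq2 gave 4 (from 2) for cultivar in summer at E-L 38. The shares of all genes called under these settings, or with single replicates left out, are not set beside the counts. A change particular to the 7 genes therefore cannot be told from a general change in calls. The cause of these changes was not tested.

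Leaving out 1 replicate, the counts ran 5 to 6, 5 to 6 and 4 to 4 for the crop in Victoria at E-L 35, E-L 36 and E-L 38, 0 to 1, 2 to 5 and 2 to 2 in Muscat Superior, and 2 to 3, 3 to 4 and 2 to 4 for crop by cultivar. For ripening they ran 3 to 5 and 2 to 3 in summer and winter Victoria and 3 to 3 and 3 to 4 in Muscat Superior, and for ripening by crop 4 to 6 and 2 to 3 in the 2 cultivars. For cultivar they ran 2 to 2, 2 to 5 and 2 to 3 in summer and 5 to 6, 6 to 7 and 3 to 3 in winter. Without both summer Victoria replicates 1, FLS-A in summer at E-L 36 lost its call (-5.67, adjusted p = 0.123).

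Results uncalled as reported that were called with the opposite sign were FLS-A crop by cultivar at E-L 36 on log2(FPKM + 1) (-2.25, from 4.75) and, with GT5 and GT6 summed, GT6 over ripening in winter Muscat Superior (1.02, from -0.07) and between cultivars in summer at E-L 35 (1.35, from -0.47). The FPKM scales moved the median of all genes to between -0.23 and 0.17 with a pseudocount of 1 and between -0.32 and 0.21 with 0.1.

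Equal replicate numbers did not pair samples: 9 of 198 same-numbered pairs of libraries correlated above 0.1 (median -0.0015), and 13 of 36 libraries were closest to their own number. The replicate block left 142 of 147 results, called or uncalled, as they were, added 4 calls and removed 1. Depth limits MYBF1, FLS-A, GT5 and GT6, which had 3 counts or fewer in some libraries, where a difference may be undetectable rather than absent.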
